A study of Mus musculus with 23 samples.

Results

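The 8 genes described here encode the Kunitz inhibitors Spint1 and Spint2, the membrane proteases St14 and Prss8, the HGF activator Hgfac, the ligand Hgf and the receptors Met and Mst1r. They were taken by name from 47643 gene identifiers, of which 27483 had at least 1 read in any library. Spint2 was chosen by its measured values, which in these same libraries had been seen to be higher with IL-38 inhibited than in the controls, so every value of Spint2 is a description and none was tested. The other 7 genes were chosen for their part in the same pathway and were tested in each comparison.

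Spint1 and Spint2, also called HAI-1 and HAI-2, are transmembrane proteins that block trypsin-like serine proteases at the epithelial surface. Their targets include matriptase, the product of St14, prostasin, the product of Prss8, and the HGF activator. These proteases take part in the conversion of inactive pro-HGF, which is made mainly by stromal cells, into the ligand of the receptor tyrosine kinase Met, and Mst1r, or RON, is the related receptor for macrophage-stimulating protein. In mammary epithelium and its tumors the balance of protease and inhibitor is known for its effect on Met signaling and on cell junctions.

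RNA came from whole dissociated mammary tumors of female mice that carry the polyoma middle T oncogene (PyMT) on a C57BL/6 background. Wild-type (WT) PyMT mice with a first tumor of 0.6 cm received 100 µg of human IgG1 isotype control (5 tumors) or of the anti-IL-38 antibody e04 (6 tumors) once a week for 5 weeks. In a separate experiment WT mice (4 tumors) and IL-38 knockout (KO) mice (4 tumors) received polyclonal Armenian hamster IgG, and IL-38 KO mice (4 tumors) received the anti-γδ TCR clone UC7-13D5. These injections started at 13 weeks of age with 500 µg and went on weekly at 200 µg for 5 weeks. All 5 groups share the PyMT transgene and an injected antibody. Each library was treated as 1 tumor, since pooling was not given in the labels, and p-values measure the spread between these libraries.

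The libraries held 6273049 to 15879164 gene reads, and levels are given as CPM, in which each library is scaled to the same sum. Il1f10, the gene of IL-38, had 0 reads in all 23 libraries, also in WT tumors, so these data cannot check the genotype labels. All 14 epithelial marker genes were detected in every group, with a summed level of 1866 to 5003 CPM. The column headers number the libraries in a sample sheet, and the 5 libraries with numbers 19 to 23, which are IL-38 KO replicate 4 and all 4 tumors with anti-γδTCR, stood apart from the other 18. They had the lowest totals (at most 8794202 reads, against at least 10138353), and 11.3% to 20.1% of their reads fell on Gm42418, a locus that overlaps ribosomal RNA, against 2.62% to 5.70%. Lyz2, the lysozyme of macrophages and neutrophils, lay at 82.6 to 494 CPM in these 5 libraries and at 5801 to 16563 CPM in the others. What the sheet number stands for was not given, and for the γδ TCR blockade it cannot be told apart from the treatment except through IL-38 KO replicate 4. The header of anti-γδTCR replicate 3, the library with the fewest reads, also carries the mark rep, whose meaning was not given.

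The sequences before the starts of Spint1 and Spint2 are shown because these paralogs, which inhibit overlapping proteases, had different patterns of levels across the tumors. Both are the 250 bases before the RefSeq transcription start on GRCm38.p6, read 5′ to 3′ on the strand of the gene, with the hexamer CAGGTG in capitals, the E-box form recognized by Snail and ZEB repressors.
Spint1, chr2:119237110-119237359, plus strand: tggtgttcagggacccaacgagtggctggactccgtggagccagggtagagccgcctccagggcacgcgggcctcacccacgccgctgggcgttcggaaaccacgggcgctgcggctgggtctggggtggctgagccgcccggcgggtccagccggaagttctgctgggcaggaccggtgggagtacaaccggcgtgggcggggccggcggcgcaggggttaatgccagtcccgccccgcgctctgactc
Spint2, chr7:29281978-29282227, minus strand: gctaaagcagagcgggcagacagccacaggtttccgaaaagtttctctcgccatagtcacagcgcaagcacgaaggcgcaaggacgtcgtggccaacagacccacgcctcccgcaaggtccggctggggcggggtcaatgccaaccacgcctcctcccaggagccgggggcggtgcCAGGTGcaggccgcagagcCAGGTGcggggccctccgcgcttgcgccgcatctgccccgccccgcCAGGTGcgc

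Both windows were rich in G and C, at 72.8% for Spint1 and 69.6% for Spint2 against a median of 52.4% over 32841 windows of this length. Each held 3 matches to the GC box GGGCGG, which 32.7% of all windows matched at least once and 8.47% matched 3 times or more. The Spint2 window held CAGGTG 3 times, starting 74, 55 and 9 bases before the RefSeq start, and the Spint1 window did not hold it on either strand. Counted on both strands, 17.2% of all windows held this hexamer and 0.247% held it 3 times or more. The wider E-box CANNTG, which includes the hexamer, occurred 4 times in the Spint2 window and 0 times in that of Spint1. AP-1 (TGANTCA) and grainyhead (AACNNGTT) motifs were found in neither of these windows. The coding transcripts of GENCODE M21 start 2 bases from the RefSeq start of Spint1 and 65 bases downstream of that of Spint2. Windows were at hand for 6 of the 8 genes, and matches are letters in the sequence and not evidence of binding.

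Spint2 (ENSMUSG00000074227, chr7:29256323-29281912 on GRCm38) lay at 38.4, 18.04, 60.7, 33.6 and 14.96 CPM in the 5 isotype control tumors. On IL-38 neutralization its level ranged from 44.3 to 132 CPM with a median of 69.6 over the 6 tumors. All 6 anti-IL-38 tumors lay above the control median and 4 of them above every control, while the highest control, replicate 3, overlapped with the lower anti-IL-38 tumors. The fitted difference, on log2 of the normalized count plus 1 as all differences below, was 1.28 with an SE of 0.36.

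In WT tumors of the genotype experiment Spint2 lay at 30.01, 20.9, 60.8 and 57.4 CPM, and in IL-38 KO tumors at 149.8, 92.2, 119 and 123 CPM. Every IL-38 KO tumor was above every WT tumor, and the fitted difference was 1.65 with an SE of 0.31. Spint2 alone of the 8 genes had groups that did not overlap in this direction, where 3.66% of all 16563 genes did, and 0 of the 8 were lower without overlap, where 3.41% did. This contrast was part of what chose the gene, so nothing is read from that count. Without IL-38 KO replicate 4 the difference was 1.63. Over both experiments, the 10 tumors with IL-38 inhibited had 1160 ± 438 normalized counts of Spint2 (SD, n = 10) and the 9 controls 452 ± 223 (SD, n = 9), and 8 of the 10 lay above every control. Their fitted difference was 1.42 (SE 0.28). St14 had 1771 ± 302 against 1378 ± 370 and Prss8 581 ± 151 against 436 ± 160 normalized counts in the same libraries, with differences of 0.39 and 0.45. In this pooled contrast, which chose Spint2, 6.42% of all 16352 genes had an unadjusted p under 0.05 with a higher level and 4.13% with a lower level, and no member was tested.

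In IL-38 KO tumors with anti-γδTCR, Spint2 lay at 60.1, 56.6, 79.5 and 82.6 CPM, below each of the 4 IL-38 KO tumors with IgG, which are the same libraries as in the genotype comparison. On the normalized counts of the table that holds these 8 libraries, 3 of the 4 lay below every IgG tumor, and the fitted difference was -0.62 with an SE of 0.20. All 4 also lay below IL-38 KO replicate 4 (123 CPM), the IgG tumor that shares their range of sheet numbers. The difference without that replicate was -0.58.

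Epithelial markers had positive differences on neutralization as well, although 0 of 14 passed the test. Epcam, an epithelial adhesion molecule and matriptase substrate, had 7217 ± 3807 normalized counts in isotype control tumors (SD, n = 5) and 10787 ± 2774 in anti-IL-38 tumors (SD, n = 6). On neutralization 14 of 14 epithelial markers had positive fitted differences, with a median of 0.66, against 50.2% of all genes. In the KO 9 of 14 were positive (median 0.12, 50.6% of all genes). There Cldn4 (1.08), Cdh1 (0.49) and Grhl2 (0.48) were higher and Krt7 (-0.67) and Krt19 (-0.74) lower at an unadjusted p under 0.05 in limma. The background over all genes was 6.73% higher and 5.4% lower. On blockade 10 of 14 were positive (median 0.14, 51.9% of all genes). With the mean of the epithelial list as a term in the fit, the Spint2 difference was 0.79 for the antibody, 1.41 for the knockout and -0.60 for the blockade. In bulk tumors a smaller number of cells of a type and less RNA per cell cannot be told apart.

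Spint1 (ENSMUSG00000027315, chr2:119237362-119249527) is the paralog of Spint2. It lay at 80.2, 78.02, 144, 82.4 and 59.8 CPM in isotype control tumors and between 61.4 and 103 CPM, with a median of 83.6, in anti-IL-38 tumors. The 6 anti-IL-38 tumors fell within the range of the controls. The fitted difference was -0.00 with a 95% interval from -0.44 to 0.43 (limma, adjusted p = 0.996). The levels were 80.3, 68.4, 92.0 and 101 CPM in WT tumors and 108, 98.0, 102 and 64.7 CPM in IL-38 KO tumors. These groups overlapped, since replicate 4 of the KO was the lowest of all 8, and the difference was 0.14 (95% interval -0.26 to 0.53, limma, adjusted p = 0.777). With anti-γδTCR Spint1 lay at 85.1, 101, 81.0 and 79.8 CPM, again overlapping with IL-38 KO tumors (difference 0.09, 95% interval -0.27 to 0.46, limma, adjusted p = 0.795).

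The number of Spint2 reads per Spint1 read in the same library does not depend on depth or scaling. Its median was 0.408 in isotype control, 0.991 in anti-IL-38, 0.471 in WT, 1.28 in IL-38 KO and 0.844 in anti-γδTCR tumors. The ratio was 0.941 to 1.90 in IL-38 KO tumors, above the 0.306 to 0.661 of WT tumors. These ratios follow reads at the 3′ ends of both transcripts and are not a ratio of levels per length.

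**Figure D1:**
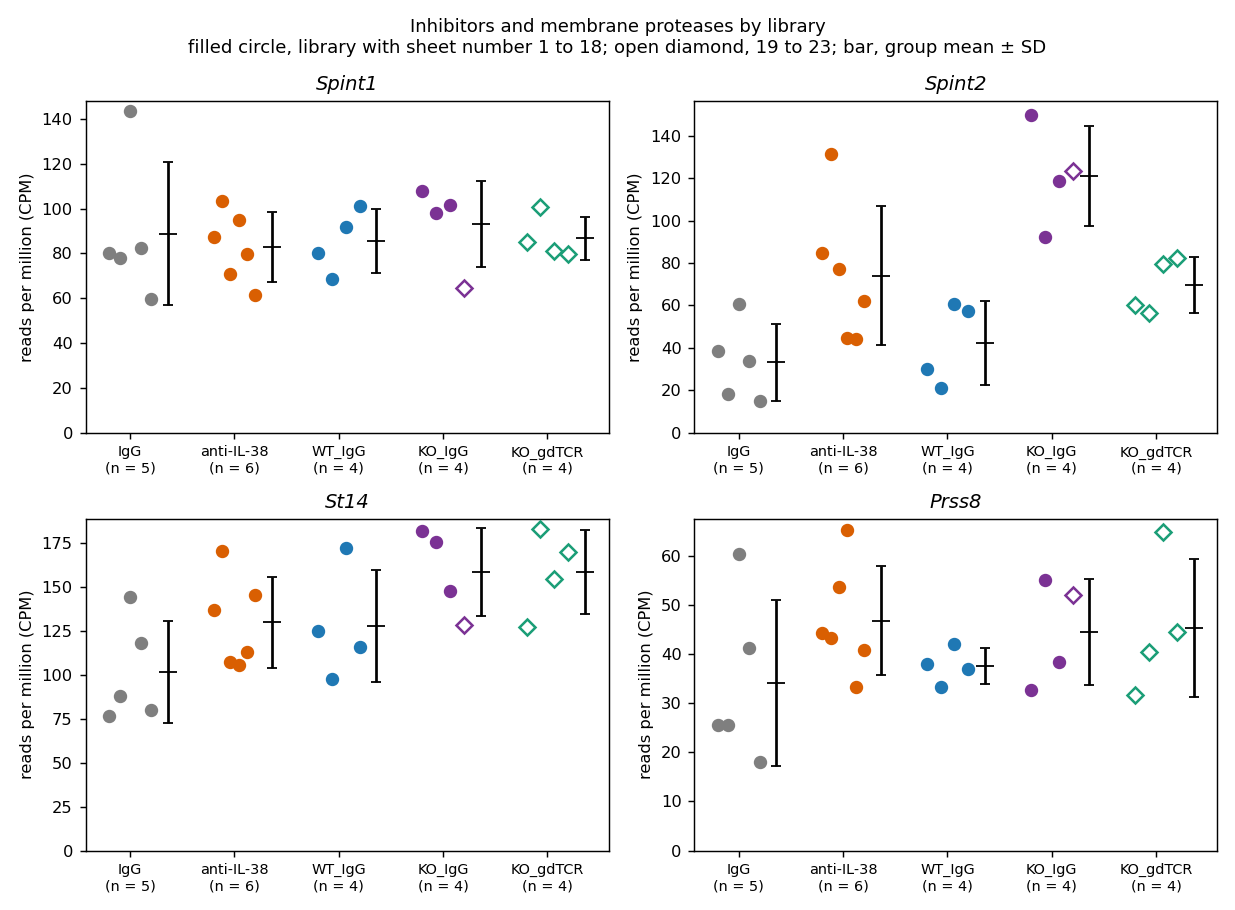
Levels of Spint1, Spint2, St14 and Prss8 in CPM (vertical axes, from 0) for each of 23 tumors in 5 groups (horizontal axes), with the group mean and SD as bars and with open diamonds for the 5 libraries of sheet numbers 19 to 23. Spint2 in IL-38 KO tumors lay between 92.2 and 149.8 CPM, above all 4 WT tumors, whereas WT and KO tumors overlapped for the other 3 genes.

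St14 (ENSMUSG00000031995, chr9:31089402-31131853), which encodes matriptase, lay at 76.5, 88.0, 145, 118 and 80.3 CPM in isotype control tumors. In anti-IL-38 tumors it ranged from 106 to 171 CPM with a median of 125. All 6 lay above the control median and 1 above every control. The difference of 0.43 (SE 0.19) had an unadjusted p of 0.0372 and an adjusted p of 0.455 in limma, and the exact permutation test gave p = 0.0779, with an adjusted p of 0.4 over 28 tests. No gene alone could pass that adjustment in any comparison, even at the smallest p its group sizes allow, so nothing is read from failing it. St14 was the only one of the 7 tested genes with an unadjusted p under 0.05 in this comparison, in which 5.61% of all 16002 genes reached it with a higher level. With the epithelial list as a term the difference was 0.25.

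WT tumors had 125, 98.0, 172 and 116 CPM of St14, and IL-38 KO tumors had 182, 176, 148 and 129 CPM. All 4 KO tumors lay above the WT median, but the highest WT tumor overlapped with them, and the difference of 0.35 (SE 0.18) did not pass the test (limma, adjusted p = 0.442, exact permutation p = 0.114). Levels of St14 with anti-γδTCR were 127, 183, 155 and 170 CPM. These overlapped with the IgG tumors in CPM, while on normalized counts 3 of the 4 lay above every IgG tumor, and the difference was 0.18 (limma, adjusted p = 0.539).

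The number of Spint1 reads per St14 read had a median of 0.887 in isotype control and 0.650 in anti-IL-38 tumors. It was 0.669 in WT, 0.575 in IL-38 KO and 0.537 in anti-γδTCR tumors. The ranges overlapped between the groups of each comparison. For Spint2 the medians per St14 read were 0.284, 0.522, 0.296, 0.812 and 0.479 in the same order of groups.

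Prss8 (ENSMUSG00000030800, chr7:127925716-127930104) encodes prostasin, a membrane-anchored protease that acts in a cascade with matriptase. Its levels were 25.5, 25.5, 60.5, 41.3 and 18.1 CPM in isotype control tumors and 33.3 to 65.2 CPM, with a median of 43.8, in anti-IL-38 tumors. All 6 were above the control median and 1 above every control. The difference of 0.60 (SE 0.28) did not pass the test (limma, adjusted p = 0.477, exact permutation p = 0.113), and with the epithelial list as a term it was 0.27. WT tumors were close together, at 38.0, 33.3, 42.1 and 36.9 CPM, and IL-38 KO tumors lay on both sides of them, at 32.6, 55.1, 38.4 and 52.1 CPM (difference 0.24, limma, adjusted p = 0.601). The difference between anti-γδTCR tumors, with 31.6, 40.4, 64.9 and 44.5 CPM, and IL-38 KO tumors with IgG was 0.18 (limma, adjusted p = 0.739).

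Control replicate 3 was the highest isotype control tumor for Spint1, Spint2, St14 and Prss8 alike. Without it the differences on IL-38 neutralization were 0.20 for Spint1, 1.56 for Spint2, 0.58 for St14 and 0.85 for Prss8. St14 and Prss8 did not pass the limma test without it either, at adjusted p of 0.208 and 0.203, and over all settings their adjusted p ranged from 0.208 to 0.808 and from 0.203 to 0.862.

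Hgf (ENSMUSG00000028864, chr5:16553495-16620152), the ligand, was measured with 9 to 106 reads per library. It lay at 7.69, 6.86, 4.85, 7.33 and 7.89 CPM in isotype control tumors and at 4.10 to 7.21 CPM, with a median of 5.05, in anti-IL-38 tumors. Of the 6 anti-IL-38 tumors, 5 lay below the control median, and both groups overlapped. The difference of -0.36 (SE 0.22) did not pass the test (limma, adjusted p = 0.560, exact permutation p = 0.0996).

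WT tumors had 4.35, 5.07, 2.99 and 3.60 CPM of Hgf. In IL-38 KO tumors 3 libraries were close together at 3.88, 3.78 and 3.59 CPM, within the WT range, while replicate 4 had 1.04 CPM, the lowest Hgf of all 23 libraries. The difference of -0.48 (SE 0.41, limma, adjusted p = 0.645) was -0.05 without replicate 4. The lower mean in the KO came from this 1 library.

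With anti-γδTCR the Hgf levels were 1.62, 1.52, 2.07 and 1.48 CPM, at 13 reads in each tumor. All 4 lay below the 3 IL-38 KO tumors of the other sheet numbers and above replicate 4. The difference of -0.52 (SE 0.44) did not pass the test with all 8 libraries (limma, adjusted p = 0.550), and without replicate 4 it was -0.94 (limma, adjusted p = 0.0926). With the epithelial list as a term it was -0.12 (limma, adjusted p = 0.941). Over all settings the adjusted p ranged from 0.0926 to 0.941.

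The low Hgf libraries were also those with few reads of myeloid genes. Itgam and Itgax, integrins of macrophages, neutrophils and dendritic cells, lay at 7.94 to 24.3 and 18.3 to 30.2 CPM in the 5 libraries with sheet numbers 19 to 23. They lay at 106 to 295 and 178 to 478 CPM in the other 18. Csf1r, the receptor of macrophage growth factor, was at 96.9 to 179 CPM against 370 to 915 CPM. C1qa, a complement subunit made by macrophages, differed less, at 239.8 to 362 against 310.0 to 649 CPM. Among the 11 leukocyte markers none was at 0 in all 23 libraries. Their summed level was 754 to 1164 CPM in anti-γδTCR tumors, 1179 CPM in IL-38 KO replicate 4 and 6997 to 10122 CPM in the other IL-38 KO tumors with IgG. In IL-38 KO replicate 1 Lyz2 made up 5801 of 6997 CPM. Not all leukocyte genes were low on blockade, since 5 of the 10 tested had positive differences, among them Ptprc (0.36), Cd3e (0.52), Cd8a (0.13) and Trdc (0.87), and none of the 10 passed in limma. The part of these cells in the low Hgf of these 5 libraries was not tested. Hgf was set against the leukocyte list only over the 19 libraries of both IL-38 experiments, as given below.

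Hgfac (ENSMUSG00000029102, chr5:35041509-35048461) encodes a secreted serine protease that is made mainly in liver and that activates pro-HGF. It had at most 31 reads in a library. Isotype control tumors had 1.71, 0.722, 1.09, 1.94 and 2.16 CPM, and anti-IL-38 tumors 1.38 to 2.46 CPM with a median of 1.88, and the difference of 0.45 (SE 0.34) did not pass the test (limma, adjusted p = 0.633). In the genotype experiment the reads were 14, 31, 9 and 8 in WT tumors and 20, 13, 14 and 0 in IL-38 KO tumors. The difference of -0.92 (SE 0.88, limma, adjusted p = 0.684) was 0.04 without KO replicate 4.

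With anti-γδTCR the Hgfac reads were 0, 1, 0 and 0. A count of 0 allows up to 3 reads, and this limit covers counting error only. The gene failed the filter on low values in this comparison, and the low counts covered all 5 libraries with sheet numbers 19 to 23, with 1 read in total, also the IgG tumor among them. The other 18 libraries had 8 to 31 reads each.

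Met (ENSMUSG00000009376, chr6:17463800-17573980), the HGF receptor, was the least variable of the 8 genes, with a coefficient of variation of 13.6% over the 19 libraries of both IL-38 experiments. Isotype control tumors had 112, 112, 105, 122 and 69.2 CPM and anti-IL-38 tumors 86.4 to 121 CPM with a median of 107. Both groups overlapped, and the difference was 0.07 with a 95% interval from -0.23 to 0.36 (limma, adjusted p = 0.885). Levels in WT tumors were 88.9, 94.3, 99.8 and 97.7 CPM. IL-38 KO tumors had 109, 109, 107 and 86.8 CPM, with 3 of 4 above every WT tumor, and the difference of 0.13 did not pass the test (limma, adjusted p = 0.675).

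On γδ TCR blockade Met lay at 75.3, 81.3, 64.9 and 73.8 CPM, below every IL-38 KO tumor with IgG. The groups did not overlap, as for 4.98% of all 16481 genes in this direction, and 0 of the 8 genes lay wholly above, as 4.57% did. The difference of -0.30 (SE 0.12) had an unadjusted p of 0.0298 and did not pass after adjustment (limma, adjusted p = 0.172, range over all settings 0.0839 to 0.506). Met was the only one of the 6 genes tested here with an unadjusted p under 0.05, which 9% of all genes reached with a lower level. The exact permutation test gave p = 0.0286, the smallest that 4 against 4 tumors allow, and an adjusted p of 0.4, which no gene alone could bring under the threshold. All 4 tumors lay below replicate 4 of the KO (86.8 CPM), which in turn was the lowest of the IgG tumors.

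Mst1r (ENSMUSG00000032584, chr9:107906873-107920383), the RON receptor, was near the limit of detection with 0 to 36 reads per library. Isotype control tumors had 15, 1, 8, 7 and 0 reads and anti-IL-38 tumors 5 to 9 reads, and the difference of 0.82 (SE 0.67) did not pass the test (limma, adjusted p = 0.656). WT tumors had 14, 12, 17 and 36 reads and IL-38 KO tumors 16, 15, 6 and 22 reads (difference -0.36, limma, adjusted p = 0.821). With anti-γδTCR there were 5, 14, 3 and 18 reads (difference 0.03, limma, adjusted p = 0.983). Its 95% interval on neutralization ran from -0.61 to 2.26, so these libraries allow differences of either sign.

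**Figure D2:**
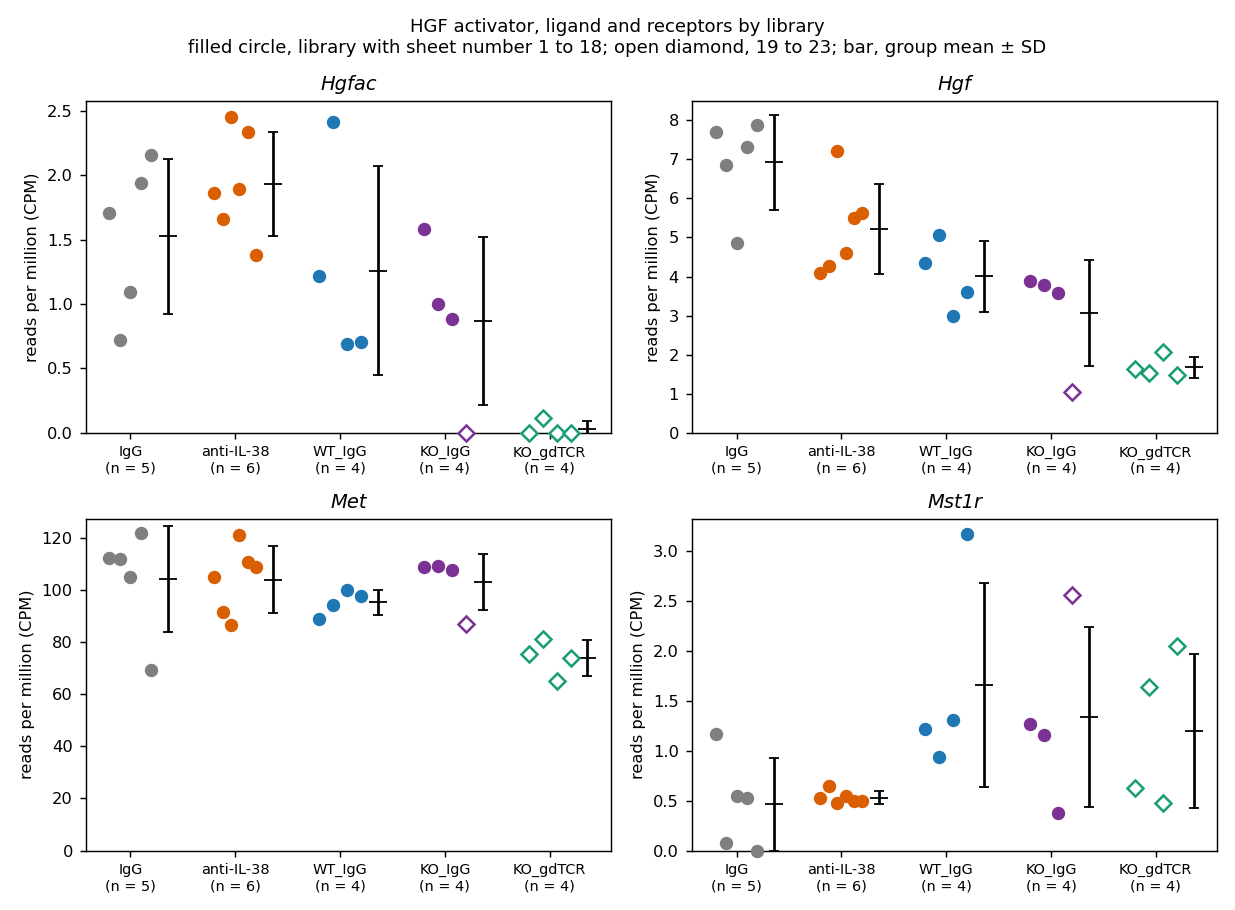
Levels of Hgfac, Hgf, Met and Mst1r in CPM (vertical axes, from 0) for each of 23 tumors in 5 groups (horizontal axes), with the group mean and SD as bars and with open diamonds for the 5 libraries of sheet numbers 19 to 23. Hgf lay at 1.04 to 2.07 CPM in these 5 libraries and at 2.99 to 7.89 CPM in the other 18, and Hgfac had 1 read in these 5 in total.

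None of the 7 tested genes passed an adjusted p of 0.05 on IL-38 neutralization (background 0% of all genes), in the KO (0.00604%) or on blockade, where 6 could be tested (0%). With the epithelial list as a term, the differences on neutralization were -0.39 for Spint1, -0.14 for Hgf, -0.0701 for Met and 0.12 for Mst1r, and those in the KO were 0.12 for Prss8, -0.10 for Hgfac, -0.12 for Hgf and -0.61 for Mst1r, and none passed in limma. Neither edgeR nor DESeq2 called any of them in these 3 comparisons, and at an unadjusted p under 0.05 limma had 1, 0 and 1 of them. On neutralization 0 of the 8 genes had groups without overlap, against a background of 0.4% above and 0.644% below. The difference between the antibody effect and the knockout effect did not pass the test for any of the 7 either, with adjusted p-values from 0.747 to 0.965 (limma, interaction over 19 libraries, background 0.00612%), and 0 of 7 had an unadjusted p under 0.05 (background 4.24% higher and 3.43% lower). For Spint2 that difference was -0.37 with an SE of 0.54. The KO and blockade comparisons share their 4 IL-38 KO tumors with IgG, so that opposite signs in them are not separate observations.

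**Figure D3:**
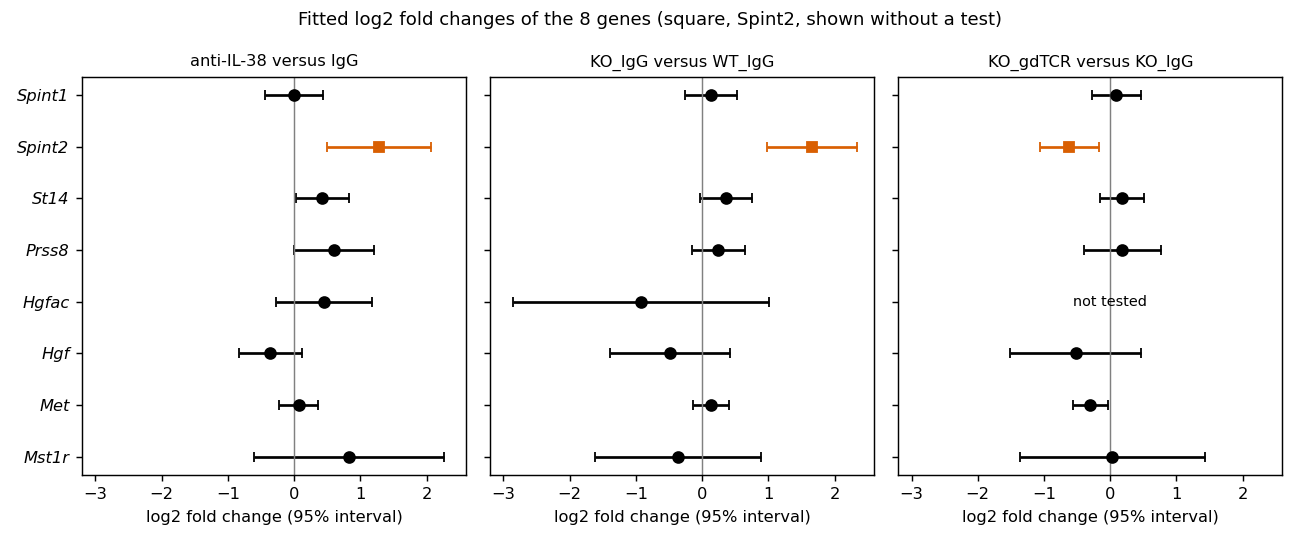
Fitted log2 fold changes (horizontal axes) with 95% intervals for the 8 genes (vertical axis) in the 3 comparisons, each from limma. Spint2, shown as a square and without a test, had 1.28, 1.65 and -0.62, and Hgfac was not tested on blockade.

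Ordered by mean CPM over the 5 groups, Spint2 was lowest in isotype control tumors (33.1 ± 18.3, SD, n = 5), followed by WT (42.3 ± 19.8, SD, n = 4), IL-38 KO with anti-γδTCR (69.7 ± 13.2, SD, n = 4), anti-IL-38 (74.1 ± 32.6, SD, n = 6) and IL-38 KO (121 ± 23.6, SD, n = 4). Neighbours in this order differed by 0.461, 1.38, 0.135 and 1.44 times the larger SD, and their ranges overlapped. Over all 8 genes, 8 of 32 such steps were larger than the larger SD. The ranges did not overlap in 1 step, that of Met from anti-γδTCR (73.8 ± 6.78, SD, n = 4) to WT tumors (95.2 ± 4.77, SD, n = 4). In these anti-γδTCR tumors 11.6% to 20.1% of reads fell on Gm42418, against 3.58% to 5.70% in WT tumors, and CPM does not correct for this. The authors normalized these groups separately. No share over all genes was taken for such steps, so nothing is read from their counts.

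Controls of both experiments were PyMT WT mice with an isotype IgG, but they differed in the IgG, the start of treatment and the experiment. Hgf was higher in isotype control tumors of the neutralization experiment (87.1 ± 14.3 normalized counts, SD, n = 5) than in WT tumors of the genotype experiment (46.9 ± 11.3, SD, n = 4), and all 5 lay above all 4, as for 3.45% of genes. The difference of 0.89 (SE 0.25) did not pass in limma (adjusted p = 0.128, range over all settings 0.0279 to 0.334) and passed in DESeq2 (adjusted p = 0.0279). The exact permutation test gave p = 0.0159, the smallest it allows, with an adjusted p of 0.4, which no gene alone could bring under the threshold. Mst1r was lower by 2.04 on the log2 scale, with 0 to 15 against 12 to 36 reads (limma, adjusted p = 0.206). Of the 7 genes, 0 passed in limma, where 0.0994% of all genes did, and at an unadjusted p under 0.05 Hgf was higher and Mst1r lower (background 9.11% and 9.49%). None of the 8 lay wholly below, as 3.57% did. Between these controls Spint2 differed by -0.29 with an SE of 0.41, and by 0.15 with the epithelial list as a term, so its direction is not settled.

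Across the 19 libraries of both IL-38 experiments, Spint2 and St14 varied together, with Pearson r = 0.80 and Spearman rho = 0.81, given as a description. The correlation was 0.83 within the 11 libraries of the neutralization experiment and 0.73 within the 8 of the genotype experiment. It was 0.71 without the 2 libraries farthest from the median of Spint2, and 0.67 after the group means were removed. Spint2 and Spint1 had r = 0.45 and rho = 0.52. For Spint2 and Hgf the values were r = -0.52 and rho = -0.48.

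Of the 21 pairs of genes other than Spint2, 1 passed the permutation test after adjustment, Hgf with Hgfac (Pearson r = 0.84, permutation p = 0.00017, adjusted p = 0.00357, Spearman rho = 0.69, permutation p = 0.0012, adjusted p = 0.0252). The Pearson r fell to 0.53 without the 2 libraries farthest from the median of Hgfac, among them KO replicate 4, so these raised it without being all of it. It was 0.13 in the neutralization experiment, 0.98 in the genotype experiment and 0.88 after the group means were removed. St14 and Prss8 had r = 0.57 (permutation p = 0.01, adjusted p = 0.0701) and rho = 0.53 (permutation p = 0.0203, adjusted p = 0.106). Spint1 and St14 had r = 0.50 (permutation p = 0.0269, adjusted p = 0.141) and rho = 0.56 (permutation p = 0.0151, adjusted p = 0.106). Hgf and Mst1r had r = -0.64 and rho = -0.61, each with permutation p = 0.00583, and did not pass after adjustment (adjusted p = 0.0612 for each). Their r was -0.38 in the neutralization experiment, -0.50 in the genotype experiment and -0.41 after the group means were removed.

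**Figure D4:**
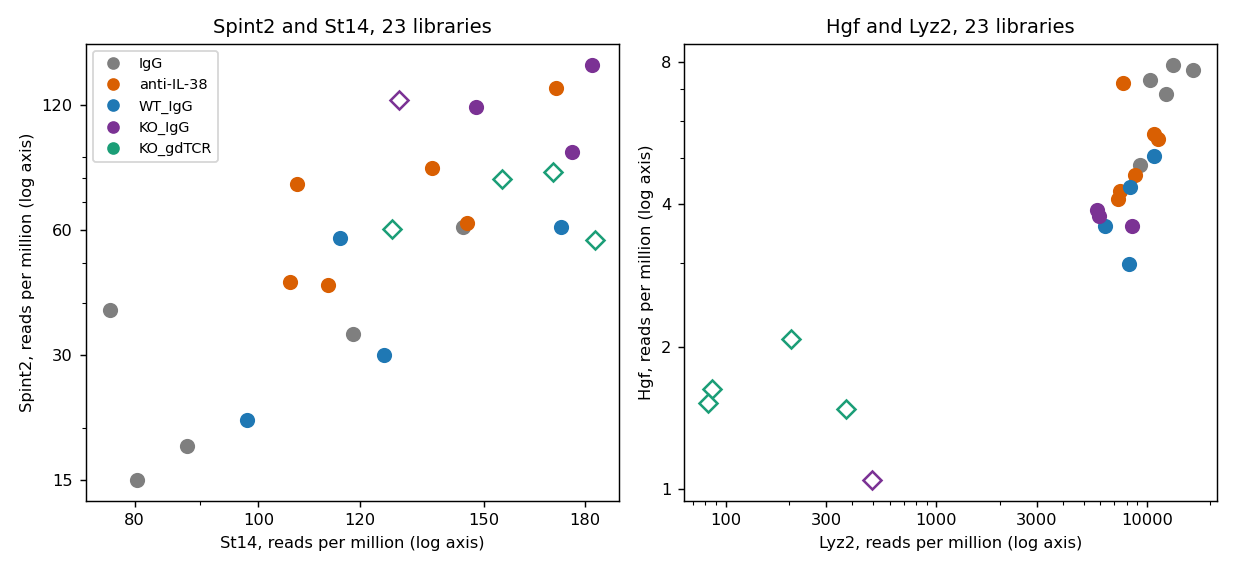
Spint2 against St14 (left) and Hgf against Lyz2 (right) in CPM on log axes, with 1 point for each of 23 tumors, coloured by group, and open diamonds for the 5 libraries of sheet numbers 19 to 23. Over the 19 libraries of both IL-38 experiments, tumors with more Spint2 tended to have more St14 (r = 0.80). The 4 anti-γδTCR tumors are not in that r and had 56.6 to 82.6 CPM of Spint2 at 127 to 183 CPM of St14. The 5 open diamonds on the right lay below 500 CPM of Lyz2 and at 1.04 to 2.07 CPM of Hgf.

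Among 13603 genes with a mean of at least 20 normalized counts, those whose pattern over the 19 libraries was most like that of Spint2 were Twsg1 (Spearman rho = 0.963), Slc35b3 (0.940), Ndfip2 (0.935), Slc30a5 (0.932) and C1galt1c1 (0.925). For St14 they were Nectin4 (0.888), an epithelial adhesion molecule, Tmem131l (0.877) and Sc5d (0.868). Prss8 was most like Sec11a (0.911), Cldn3 (0.898), a claudin of tight junctions, and Serinc2 (0.854). Among the genes closest to Spint1 were Sypl (0.882) and Ptprk (0.868). For Hgf the closest were Soat1, Pla2g15 and Uqcrq (0.925 each), for Hgfac Zcchc10 (0.844), Itga1 (0.795) and Tgfb1 (0.793), for Met Yipf5 (0.758), BC031181 (0.751) and P2ry13 (0.747), and for Mst1r Pnrc2 (0.891), Cecr2 (0.881) and Tmem231 (0.853). These coefficients are the highest of many and carry no test.

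The wider pathway was followed in 80 further genes, in 4 lists of serine proteases and inhibitors, protease substrates, ligands and co-receptors, and Met signal transducers. On IL-38 neutralization 70 could be tested, of which 0 passed in limma, and 9 higher and 2 lower had an unadjusted p under 0.05 (background 5.61% and 4.91%). In the KO 71 were tested, 0 passed, and 8 higher and 1 lower had an unadjusted p under 0.05 (background 6.73% and 5.4%). On blockade 71 were tested, 0 passed, and 14 were higher and 5 lower at that level (background 12.7% and 9%). The median difference of the tested pathway genes was 0.11, 0.01 and 0.01 in these comparisons, against 0.00, 0.01 and 0.02 over all genes.

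Of other type II transmembrane proteases, Tmprss2 had 500.02 ± 186 normalized counts in isotype control tumors (SD, n = 5) and 1209 ± 904 in anti-IL-38 tumors (SD, n = 6), a difference of 1.09 (limma, adjusted p = 0.425). Hpn, which encodes hepsin, a pro-HGF convertase, differed by 0.29 on neutralization (limma, adjusted p = 0.826) and by 0.47 in the KO (limma, adjusted p = 0.386). Tmprss4 differed by -0.12 and 0.74 (limma, adjusted p = 0.961 and 0.414). Plau, or urokinase, which also cleaves pro-HGF, differed by 0.41, 0.42 and, on blockade, -0.87 (limma, adjusted p = 0.546, 0.526 and 0.126).

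Epcam and Cldn7 form a complex at epithelial junctions that matriptase cleaves when inhibitors are lacking. Epcam differed by 0.70 on neutralization, 0.31 in the KO and 0.31 on blockade (limma, adjusted p = 0.476, 0.573 and 0.284). Cldn7 differed by 0.19, 0.41 and 0.43 (limma, adjusted p = 0.755, 0.414 and 0.0811). The protease-activated receptor F2rl1 differed by 0.11, 0.36 and 0.12. Scnn1a, a subunit of the sodium channel that prostasin activates, differed by 0.28, -0.36 and 0.58. All of these had adjusted p over 0.4 in limma.

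Mst1, the ligand of RON, failed the filter on low values, with 3.15 ± 4.12 normalized counts in isotype control tumors (SD, n = 5) and 3.56 ± 0.976 in anti-IL-38 tumors (SD, n = 6). Dcn, or decorin, a matrix proteoglycan that binds Met, differed by 0.89, -0.08 and 0.65 (limma, adjusted p = 0.533, 0.917 and 0.225). Plxnb1, a semaphorin receptor that couples to Met, differed by -0.02, 0.10 and 0.62 (limma, adjusted p = 0.987, 0.877 and 0.205). Among adaptors of Met, Gab1 differed by 0.36, 0.28 and -0.34 (limma, adjusted p = 0.524, 0.598 and 0.324) and Grb2 by -0.16, -0.32 and -0.04 (limma, adjusted p = 0.635, 0.418 and 0.911).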

How the data were processed

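RNA of dissociated PyMT tumors was sequenced from 3′ ends (QuantSeq) in 23 libraries. The authors ran the BlueBee QuantSeq pipeline, and the submitters' processing notes name STAR, HTSeq, DESeq2 and GRCm39. The deposited signal values are counts that the authors normalized with 1 size factor per library, separately for a table of 19 and a table of 8 libraries that share 4. Dividing by the value of 1 read gave whole reads for 100% of values within 0.0001%. Of 47643 identifiers, 47224 had a GENCODE M21 symbol (GRCm38). The files hold no coordinates, and positions printed are those of GRCm38.

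In each comparison, limma 3.58.1 (trend, two-sided, R 4.3.3) was run on log2 values with a pseudocount of 1 for all genes averaging 5 or more normalized counts, adjusted over all genes (Benjamini-Hochberg, threshold 0.05). Two-sided exact permutation tests were adjusted over 28 tests, which no gene alone could pass at these group sizes. Correlations used 100000 resamples over all libraries of both IL-38 experiments without regard to group (Python 3.11.15, scipy 1.17.1). Members, gene lists and tests were chosen with earlier results of these data known. Pathway genes named are those of a fixed list and any past the threshold. The most similar genes are the 5 closest to Spint2 and the 3 closest to each other member, of which 1 for Spint1 is not reported here. Alternatives were pseudocounts of 0.5 and 5, other filters, TMM and quantile scaling, edgeR 4.0.16 and DESeq2 1.42.0. Others were the replicate number as a block, an epithelial term and leaving out each library. The fits were also run on simulated counts, with the same spread for every gene and large changes only in genes with many reads. That run does not show what could be detected for the genes here. No 2 libraries agreed within sampling noise.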

Additional observations from a re-analysis of the deposited data

Results flagged for a closer look

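Of 40 sets of 4 to 6 libraries examined over the 8 genes, 6 held a library far from the others of its group by Dixon's ratio of its gap to the nearest other over the range, of which chance alone gives about 1 in 20. In isotype control tumors these were Spint1 in replicate 3 (ratio 0.775, 1875 normalized counts against 1015 for the next) and Met in replicate 5 (ratio 0.781, 885 against 1365). In IL-38 KO tumors Hgf in replicate 4 (ratio 0.916, 12.7 against 43.0 normalized counts) and Met in the same replicate (ratio 0.934, 1055 against 1273) lay below the others, and this library has sheet number 19. Mst1r in WT replicate 4 was higher than in the other WT tumors (ratio 0.846, 36.7 against 15.2 normalized counts). Hgfac in anti-γδTCR replicate 2 had a ratio of 1 because it had 1 read where the other 3 tumors had 0.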

How the results depend on the processing

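None of the 7 tested genes passed the threshold in the antibody, KO or blockade comparison under any alternative run. Of 508 refitted differences of tested genes, 484 kept their direction and side of the threshold, 1 passed newly (Hgf between the controls, 0.89 in DESeq2) and 23 changed sign. Of 314 refitted values described without a test, 14 changed sign. The number of all genes called by limma was 0 for the antibody, 1 for the KO, 0 for blockade, 0 for the pooled contrast, 1 for the interaction and 16 between the controls. DESeq2 called 75, 298, 1030, 70, 10 and 742, and edgeR 0 for the KO, 1 for the pooled contrast and 0 for the interaction. The epithelial term gave 0 for the KO, 1 pooled and 0 for the interaction, the experiment as a term 1 pooled, and a pseudocount of 0.5 gave 7 between the controls. Leaving out each library gave 0 to 6 for the antibody (6 without isotype control replicate 3), 0 to 7 for the KO (7 without WT replicate 3 or KO replicate 4), 0 to 2357 for blockade (2357 without KO replicate 4), 0 to 23 pooled (23 without isotype control replicate 3), 0 to 2 for the interaction and 0 to 45 between the controls (45 without isotype control replicate 1). The cause was not tested.

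Signs changed for Spint1 on neutralization with TMM (0.00496), for Met there with the epithelial term (-0.0701), for Prss8 on blockade with that term (-0.0901), for Mst1r on blockade with quantile scaling (-0.43), edgeR (-0.00352) and the epithelial term (-0.49), and for Prss8 between the controls with the epithelial term (0.17). Among values without a test, the epithelial term changed the sign of Spint2 between the controls (0.15) and of Spint1 (-0.13), Hgfac (0.17) and Mst1r (-0.35) in the pooled contrast, where the other changes of sign were also of Hgfac and Mst1r. Leaving out each library gave ranges across 0 for Spint1 (-0.13 to 0.20) and Met (-0.0686 to 0.12) on neutralization, Hgfac (-1.40 to 0.0356) and Mst1r (-0.75 to 0.0909) in the KO, Spint1 (-0.0512 to 0.16), Prss8 (-0.0500 to 0.33) and Mst1r (-0.40 to 0.43) on blockade, and Spint1 (-0.0864 to 0.24) and Prss8 (-0.41 to 0.0343) between the controls.

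The labels give no pairing by replicate number, and deviations of same-numbered libraries correlated at -0.169 to 0.0746, which cannot exclude one. KO replicates 2 and 4 were most like the WT tumor of the same number. With the number as a replicate block, limma called 1 gene for the antibody, 0 for the KO and 36 between the controls, and Spint1 on neutralization (0.0828) and Prss8 between the controls (0.0343) changed sign. Hgf, Hgfac and Mst1r rested on at most 106 reads per library, which limits what could be detected for them.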

Other observations

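The 7 genes other than Spint2 were also set against the mean of the epithelial, fibroblast and leukocyte marker lists over the 19 libraries, a family of 21 relations to which the leukocyte list was added after seeing the data. Prss8 followed the epithelial list (r = 0.65, permutation p = 0.00281, adjusted p = 0.0197, rho = 0.57, permutation p = 0.0128, adjusted p = 0.0897), with r = 0.39 without the 2 libraries farthest from its median. Hgf, which is known from stromal cells, was inversely related to the fibroblast list (r = -0.69, permutation p = 0.00177, adjusted p = 0.0186, rho = -0.85, permutation p = 1e-05, the smallest these resamples can give, adjusted p = 0.00021). These permutations did not keep the groups apart, and r was -0.50 after the group means were removed. It was -0.76 without the 2 libraries farthest from the median of Hgf, -0.87 in the neutralization experiment and -0.34 in the genotype experiment. The relation of Hgf to the leukocyte list (r = 0.61, permutation p = 0.0147, adjusted p = 0.0516, rho = 0.24, permutation p = 0.317, adjusted p = 0.476) had r = 0.15 without the 2 libraries farthest from the median of Hgf, among them IL-38 KO replicate 4. Mst1r followed the fibroblast list in Pearson r only (r = 0.70, permutation p = 0.00162, adjusted p = 0.0186, rho = 0.52, permutation p = 0.023, adjusted p = 0.121), with r = 0.38 without its 2 farthest libraries. Spint1 and St14 had r = 0.59 and 0.56 with the epithelial list (permutation p = 0.0113 and 0.0102, adjusted p = 0.0474 for both), and neither passed in rho (adjusted p = 0.0897 and 0.131).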
